A study of Homo sapiens with 6 samples.

Results

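HNRNPU knockdown was compared with a hairpin control gene by gene, as the number of nuclear matrix attached DNA regions that each autosomal protein-coding gene held in the 2 lists. The members were all protein-coding genes on the 22 autosomes of the GRCh38 gene table, 19126 of the 20037 on all chromosomes, whatever their region counts. This choice of members, the families and the rules were set with earlier results of these data known. A region was given to a gene when its centre lay in the gene body, and genes were sorted into length classes of under 50 kb, 50 to 200 kb, 200 to 500 kb and over 500 kb.

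MAR-seq, in which DNA that stays with the nuclear matrix after restriction digestion is sequenced, was performed in H1 cells, a human pluripotent stem cell line. The 3 groups were H1 cells with an shRNA targeting HNRNPU (shHNRNPU), H1 cells with an shRNA targeting LUC (shLUC) and H1 cells with no treatment (hPSC), each with 2 samples labelled as repeats and 1 region list. Nuclei of all groups were extracted with detergent, crosslinked with formaldehyde and cut with MspI, HaeIII, RsaI, AluI, BamHI and PvuII. The lists hold positions only, all 400 bp wide, so the depth behind a region is unknown, the knockdown itself could not be checked, and there is no spread between repeats and no test of a difference.

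The nuclear matrix is the protein and RNA scaffold that remains when soluble chromatin is removed, and matrix attachment regions are the stretches of DNA held by it. HNRNPU, also known as scaffold attachment factor A, binds both RNA and such DNA and is an abundant protein of this scaffold. It is known for roles in chromosome organisation and in the processing of nuclear RNA.

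On the autosomes shLUC held 38860 regions and shHNRNPU 35787, so all region numbers were lower by a log2 ratio of -0.12 after knockdown, and the changes of genes and families are read beside that value. Gene bodies held 21690 shLUC regions, 20082 shHNRNPU regions and 20616 hPSC regions. The genic change was -7.41% (log2 ratio -0.11, interval -0.13 to -0.10) and the change outside protein-coding genes was -8.53% (log2 ratio -0.13, interval -0.14 to -0.11). Genes therefore lost regions in about the proportion of the whole list. Intervals here are 95% exact binomial intervals of the shLUC-only share among regions in 1 hairpin list only, carried over to the ratio, and cover counting error only. A region was called kept when a region of the other hairpin list overlapped it by at least 1 bp, and 27542 of the 27545 kept autosomal regions had the same coordinates in both lists. Of the genic shLUC regions 71.4% were kept, and 6206 genic regions were in shLUC only against 4597 in shHNRNPU only.

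Per gene the numbers were small, and most genes changed by 1 region or not at all. A region was present in either hairpin list in 10934 genes. Of these, 3344 had fewer regions after knockdown, 2361 had more and 5229 had the same number. A change by 1 region made up 2558 of the lower and 2042 of the higher genes, whereas 212 genes were lower and 68 higher by 3 regions or more. Equal numbers mostly meant the same places, since 4455 of the equal genes had no region in 1 list only and 774 had exchanged regions. There were 1224 genes with regions in shLUC and none in shHNRNPU, and 1020 with the reverse. In 1087 and 950 of these the gene had held a single region.

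A difference of at least 1.5-fold was read only in the 832 genes with at least 10 regions over both hairpin lists. Of these, 137 (16.5%) were lower and 28 (3.37%) higher in shHNRNPU, and their median log2 ratio was -0.15. When the shHNRNPU counts were scaled to the length of the shLUC list, 41 (4.93%) were lower and 48 (5.77%) higher, so lower genes no longer outnumbered higher ones on that scale. The 832 genes included 28 protocadherins, 4 of them lower in counts as deposited. Genes of a protocadherin cluster share bases and so can hold the same regions, and are not independent members. The plot of shLUC against shHNRNPU counts shows both the shift below the diagonal and the few genes far from it.

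**Figure D1:**
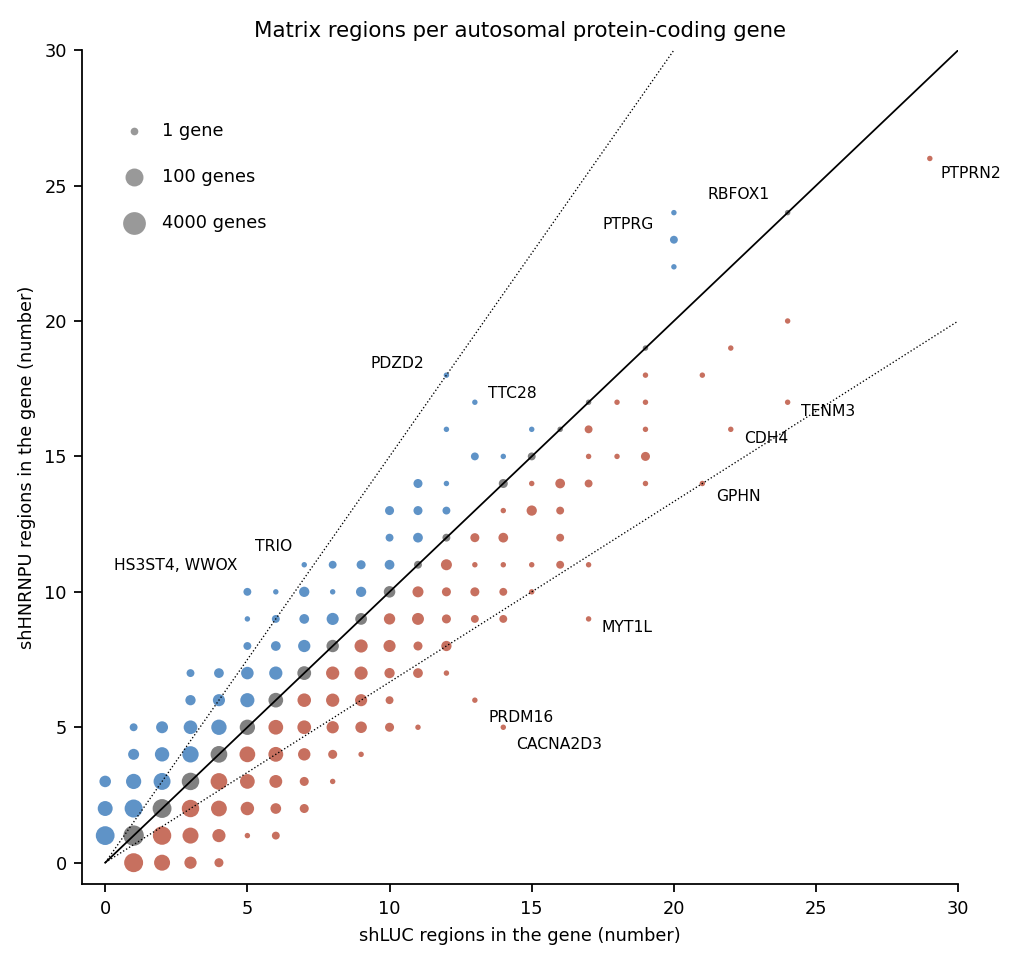
Regions per autosomal protein-coding gene in shLUC (x axis, number) and shHNRNPU (y axis, number), for the 10934 genes with a region in either list. Each dot is a pair of counts, its area grows with the logarithm of the number of genes there, red is fewer, blue more and grey equal after knockdown; the solid line is equality and the dotted lines are 1.5-fold. CACNA2D3 (14 and 5) and MYT1L (17 and 9) lie far below the lines, and PDZD2 (12 and 18) and HS3ST4 and WWOX (5 and 10 each) on or above them.

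The largest net loss was in CACNA2D3, which encodes an auxiliary subunit of voltage-gated calcium channels and spans chr3:54122552-55074557. It held 14 shLUC, 5 shHNRNPU and 11 hPSC regions, and was lower also after scaling. The 4 kept regions all lay between 768 and 929 kb from the first base of the gene. Ahead of them none of the shLUC regions, from 21.2 to 696 kb, was present after knockdown, and a single shHNRNPU-only region lay at 502 kb. The last shLUC-only region lay behind them at 942 kb. Most of the loss in this gene thus fell in 1 long stretch.

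MYT1L, a neuronal zinc-finger transcription factor, held 17 shLUC, 9 shHNRNPU and 9 hPSC regions, with 8 lost and none gained. GPHN, which encodes the gephyrin scaffold of inhibitory synapses, held 21, 14 and 23 regions. The losses of GPHN were interleaved with its 12 kept regions along the gene. TENM3, a teneurin adhesion protein, held 24, 17 and 19, and its 17 shHNRNPU regions were all kept ones. SDK1, an immunoglobulin adhesion protein of synapses, held 17, 11 and 10. CDH4, or R-cadherin, held 22, 16 and 9. Of these, GPHN and SDK1 were at least 1.5-fold lower in counts as deposited but not after scaling, TENM3 and CDH4 in neither, and MYT1L in both.

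PRDM16, a zinc-finger regulator of brown fat and neural stem cells, held 13 shLUC, 6 shHNRNPU and 6 hPSC regions. It had 9 shLUC-only regions spread from 43.7 to 292 kb of its 369 kb, beside 2 gained ones. TBCD, a tubulin folding cofactor close to the end of chromosome 17, held 11, 5 and 5. ARHGEF10, a guanine nucleotide exchange factor, held 6, 1 and 6. PRDM16 and TBCD were lower with and without scaling, and ARHGEF10 held too few regions for a fold.

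The largest net gain was in PDZD2, a protein with several PDZ domains, at chr5:31639131-32110932. It held 12 shLUC, 18 shHNRNPU and 7 hPSC regions, from 8 gained and 2 lost, and was the 1 gene higher by 1.5-fold among those with at least 20 regions. HS3ST4, a heparan sulfate sulfotransferase, held 5, 10 and 7 regions. WWOX, an oxidoreductase gene at a common fragile site, also held 5, 10 and 7. In both genes the 5 shLUC regions were all kept and 5 were added. The 5 additions in WWOX lay between 140 and 671 kb of its 1113 kb.

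DPF3, a histone reader of the BAF remodelling complex, held 3 shLUC, 7 shHNRNPU and 9 hPSC regions. MTA3, a subunit of the NuRD deacetylase complex, held 3, 7 and 12. TRIO, a guanine nucleotide exchange factor of axon guidance, held 7, 11 and 12. In these 3 genes hPSC was nearer to shHNRNPU than to shLUC. PLXNA4, a semaphorin receptor, held 5, 9 and 11, and ATXN7L1 held 6, 10 and 7. PSMD14, the deubiquitinase of the proteasome lid, held 1, 5 and 3, and TAOK3, a stress kinase, held 1, 5 and 2, both under the minimum for a fold. PDZD2, HS3ST4, WWOX, DPF3, MTA3, TRIO, PLXNA4 and ATXN7L1 were at least 1.5-fold higher with and without scaling.

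**Figure D2:**
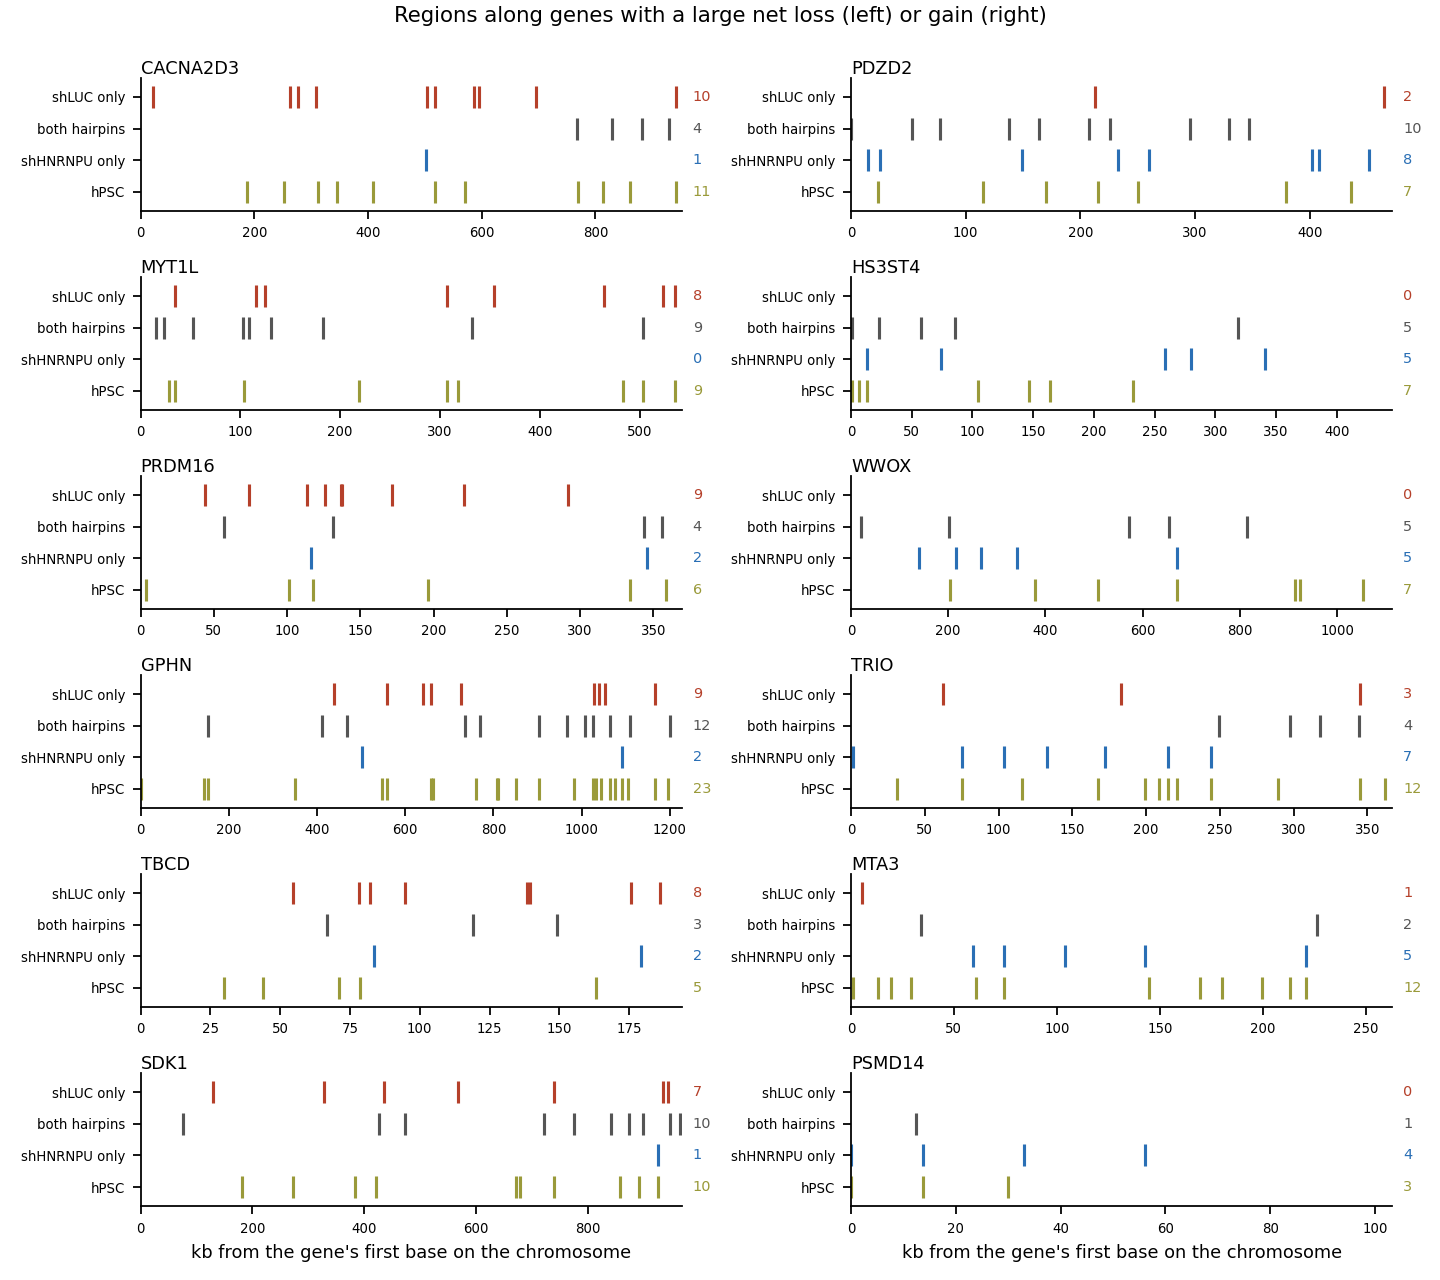
Positions of regions along 6 genes of large net loss (left) and 6 of large net gain (right), with the x axis in kb from the first base of the gene on its chromosome. Rows give shLUC-only, both hairpins, shHNRNPU-only and hPSC regions, with their number at the right; in CACNA2D3 the 10 shLUC-only regions lie mostly ahead of the 4 shared ones, and in HS3ST4 and WWOX the shLUC-only row is empty.

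Some genes held equal numbers in both hairpin lists. RBFOX1, a neuronal splicing regulator, held 24 regions in each hairpin list, of which 19 were kept, and 22 in hPSC. NRXN3, a presynaptic neurexin, held 19 in each with 16 kept, and ZFHX3, a homeobox transcription factor, 17 in each with 14 kept. Among genes with at least 20 regions over both lists the kept share was highest in ADGRL2 (95.7%), a latrophilin, PDE1C (95.7%), a phosphodiesterase, and SGCZ (95.2%), a sarcoglycan. It was among the lowest in SORCS2 (46.2%), a sorting receptor, and in MAD1L1, a spindle checkpoint gene. Net change hides this exchange: MAD1L1 lost 10 and gained 8 regions for a net of -2, and held 9 regions in hPSC. The kept share of a gene is taken here over the regions of both hairpin lists together. It is thus not the same measure as the shares of shLUC regions kept that are given elsewhere. The median kept share over the 832 genes was 77.2%, and the extremes of any such ranking are a description.

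In genes under 50 kb no gene lost or gained more than 4 regions. TPCN2, an endolysosomal cation channel, held 6 shLUC, 2 shHNRNPU and 0 hPSC regions. ESYT3, an extended synaptotagmin, and ZDHHC1, a palmitoyltransferase, each held 3 in shLUC and 0 in shHNRNPU. The reverse, 0 and 3, was found in ADGRG5, an adhesion receptor, ANAPC5, a subunit of the anaphase-promoting complex, and AP2A1, a clathrin adaptor. In the class of 50 to 200 kb CTDSPL, a phosphatase, and FIGN, a microtubule-severing enzyme, also had 0 and 3. In the longer classes the remaining named genes were ANO3, an anoctamin, with 7 and 2, MKLN1, or muskelin, with 10 and 5, and TTC28 with 13 and 17. HNRNPU itself, at chr1:244850297-244864543, held 1 region in shLUC, 2 in shHNRNPU and 1 in hPSC.

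Net change hardly depended on gene length. Genes under 50 kb held 5800 shLUC and 5463 shHNRNPU regions, a log2 ratio of -0.09 (interval -0.11 to -0.06). The class of 50 to 200 kb held 8352 and 7721 (-0.11, interval -0.14 to -0.09), that of 200 to 500 kb 4703 and 4304 (-0.13, interval -0.16 to -0.10) and that over 500 kb 2835 and 2594 (-0.13, interval -0.17 to -0.09). All 4 intervals overlapped. The corresponding hPSC numbers were 5626, 7824, 4564 and 2602. Per Mb of gene body the shortest genes were densest, with 26.7 shLUC and 25.2 shHNRNPU regions against 11.3 and 10.3 in genes over 500 kb.

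Long genes held a region more often than short ones. A region was present in 43.0% of genes under 50 kb and in all 303 genes over 500 kb. Of the genes with a region, 24.4% were lower and 19.2% higher in the shortest class, against 52.5% lower and 25.7% higher in the longest. The 137 lower genes comprised 0, 37, 71 and 29 from the shortest to the longest class, out of 1, 190, 392 and 249 with at least 10 regions. The 28 higher genes comprised 0, 8, 14 and 6. The share lower by 1.5-fold was 19.5% and 18.1% in the middle classes and 11.6% in the longest, so it did not rise with length. The share higher was 4.21%, 3.57% and 2.41% in the same order. A gene with few regions reaches 1.5-fold by a smaller difference, and a gene with many is more easily lower or higher by some number. These shares thus depend on regions per gene, which was not adjusted for.

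Position within the gene separated loss from gain more clearly than length. Within 1 kb of either gene end there were 3482 shLUC and 3587 shHNRNPU regions, a change of 3.02% (log2 ratio 0.04, interval 0.01 to 0.07). From 1 to 10 kb inside, the numbers were 4718 and 4232, a change of -10.3% (-0.16, interval -0.19 to -0.13). Deeper than 10 kb they were 13490 and 12263, a change of -9.10% (-0.14, interval -0.16 to -0.12). Genes over 500 kb held 73 and 79 regions from 1 to 10 kb inside (0.11, interval -0.11 to 0.31), against 2668 and 2423 deeper than 10 kb. The interval near gene ends did not overlap those of either inner class. In genes of 50 to 200 kb the numbers near gene ends were 1126 and 1189 (0.08, interval 0.03 to 0.13), and in genes under 50 kb 1943 and 1989 (0.03, interval -0.01 to 0.08). In the longer classes they were 319 and 317, and 94 and 92, with intervals from -0.10 to 0.08 and from -0.21 to 0.15.

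**Figure D3:**
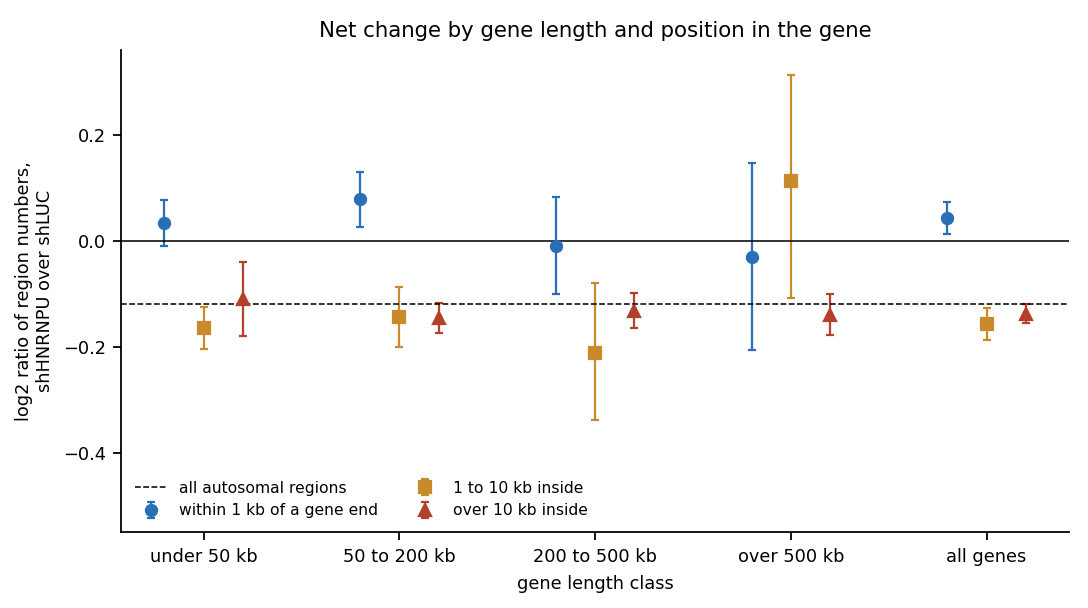
Log2 ratio of region numbers, shHNRNPU over shLUC (y axis), by gene length class (x axis) and position in the gene; bars are 95% counting intervals and the dashed line is the ratio of all autosomal regions (-0.12). Near gene ends the ratio over all genes is 0.04, and inside genes it is -0.16 and -0.14.

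The 2 ends of a gene differed once strand was taken from the promoter table, a split that was added after the values were seen. Inside genes within 1 kb of the start there were 2483 shLUC, 2613 shHNRNPU and 3353 hPSC regions, and the hairpin lists differed by 5.24% (log2 ratio 0.07, interval 0.04 to 0.11). Within 1 kb of the 3′ end there were 272, 240 and 278 regions, a change of -11.8% (-0.18, interval -0.31 to -0.05). The higher number near gene ends was therefore found at gene starts. Measured from the nearest start on either side, regions within 1 kb numbered 4064 and 4241 (0.06, interval 0.03 to 0.09), those at 1 to 10 kb 4378 and 3885 (-0.17), those at 10 to 100 kb 16577 and 15035 (-0.14) and those farther away 13841 and 12626 (-0.13).

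By count the change of sign was narrow. In the 500 bp upstream of the start 337 regions were in shLUC only and 391 in shHNRNPU only (interval of the log2 ratio -0.001 to 0.13). In the 500 bp downstream they were 394 and 553 (interval 0.06 to 0.13). In the next 500 bp downstream the numbers were 101 and 77 (interval -0.20 to 0.01), and from 500 to 1000 bp upstream 50 and 39 (interval -0.29 to 0.08). By count shLUC-only regions thus already outnumbered shHNRNPU-only ones there. Apart from the bin just downstream of the start, however, these intervals included 0. The hPSC list held 2789 and 3098 regions in the bins on either side of the start, against 1181 and 2353 in shLUC and 1234 and 2513 in shHNRNPU. All 3 lists thus peaked at gene starts.

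**Figure D4:**
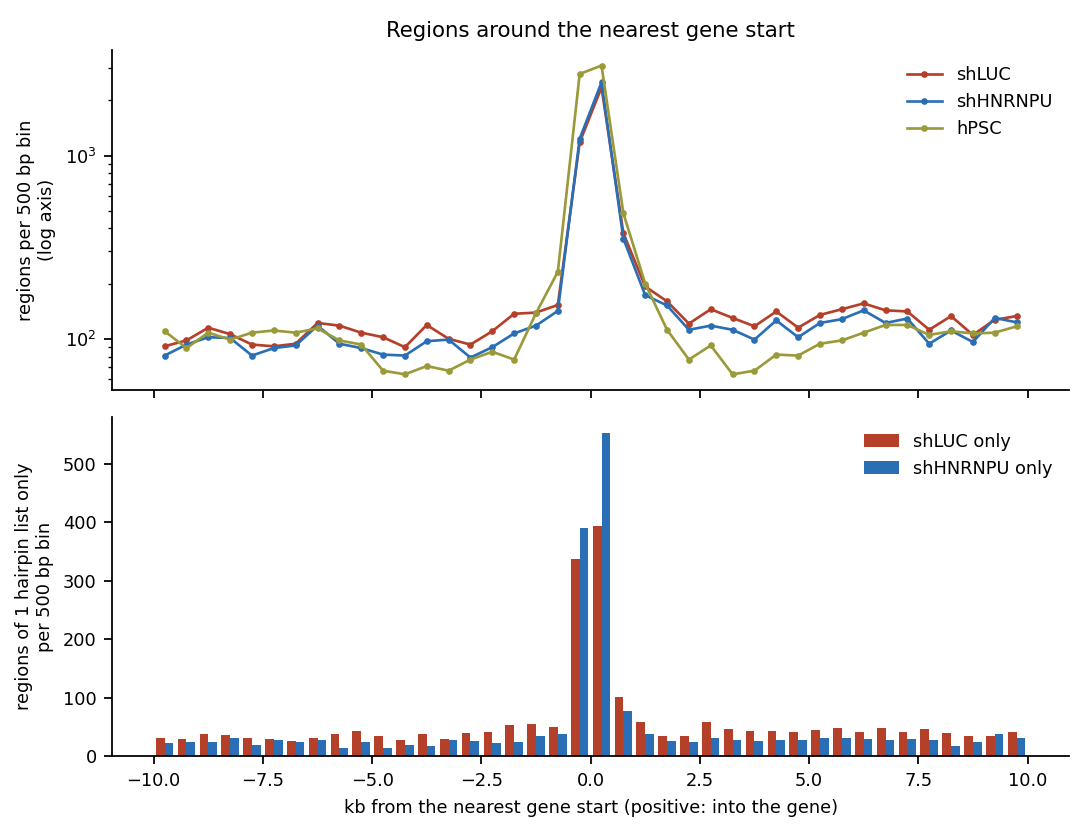
Regions in 500 bp bins by distance of the region centre from the nearest gene start (x axis, kb, positive into the gene). The upper panel gives all regions of each list on a log axis and the lower panel those in 1 hairpin list only; shHNRNPU-only regions exceed shLUC-only ones in both bins next to the start (391 to 337 and 553 to 394) and are fewer in most bins farther away.

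A region overlapped a promoter window, taken as 250 bases before to 50 after a RefSeq start, at more genes after knockdown. The table held 21156 promoters of 15101 of the 19126 genes. Of these promoters, 2623 held a region in both hairpin lists, 749 in shLUC only and 968 in shHNRNPU only. The shLUC-only share of the promoters that differed was 43.6% (interval 41.3 to 46.0%), against 57.4% (interval 56.5 to 58.4%) for all genic regions in 1 list only. By gene, 661 genes had a promoter region in shLUC only and 854 in shHNRNPU only. In all, 3372 promoters (15.9%) held a shLUC region, 3591 (17.0%) a shHNRNPU region and 6444 (30.5%) an hPSC region. The hPSC list thus differed from both hairpin lists at promoters far more than these differed from each other.

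Promoters with a region were richer in G and C than promoters at large. Median GC content was 72.3% at promoters with a kept region, 67.3% at those with a shLUC-only region, 68.7% at those with a shHNRNPU-only region and 62.7% over all promoters. The share of promoters with a region was larger at higher GC content in both hairpin lists, from 0.653% in shLUC and 1.09% in shHNRNPU below 50% GC to 34.7% and 37.2% at 70% GC or more. For hPSC these shares were 5.97% and 37.3%, with 40.6% at 60 to 70% GC. The excess of shHNRNPU-only over shLUC-only promoters was present below 50% GC (30 and 12), at 50 to 60% (172 and 120) and at 70% or more (430 and 290), and was small at 60 to 70% (336 and 327). Mappability and base composition of other regions were not tested.

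Of the enzymes used, MspI cuts at CCGG and HaeIII at GGCC, and both sites read the same on either strand. CCGG was found in 74.2% of all promoters, 96.6% of those with a kept region, 91.9% of those with a shLUC-only region and 93.6% of those with a shHNRNPU-only region. GGCC was found in 84.4%, 96.0%, 91.6% and 94.3%. AluI sites (AGCT) were found in 73.6%, 66.3%, 72.6% and 71.0%, RsaI sites (GTAC) in 27.8%, 20.8%, 27.4% and 23.05%, BamHI sites (GGATCC) in 7.22%, 7.77%, 8.95% and 7.61%, and PvuII sites (CAGCTG, which hold an AluI site) in 18.1%, 15.2%, 17.6% and 15.3%. The shLUC-only and shHNRNPU-only promoters thus differed little in cut sites, and both lay between kept and all promoters for MspI and HaeIII.

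The promoters below show what a region lost or gained at a gene start covers. They were taken by largest overlap, which was the whole window of 300 bases in all 6, and then by symbol. Each is the 250 bases before the start from RefSeq (GRCh38.p14), with capitals marking CCGG and GGCC, which can overlap. The first 3 held a region in shLUC only: AATF, an RNA polymerase binding factor of ribosome synthesis (chr17:36948704-36948953, plus strand), ADAT2, a tRNA adenosine deaminase (chr6:143450696-143450945, minus strand), and ADK, adenosine kinase (chr10:74176513-74176762, plus strand).
AATF: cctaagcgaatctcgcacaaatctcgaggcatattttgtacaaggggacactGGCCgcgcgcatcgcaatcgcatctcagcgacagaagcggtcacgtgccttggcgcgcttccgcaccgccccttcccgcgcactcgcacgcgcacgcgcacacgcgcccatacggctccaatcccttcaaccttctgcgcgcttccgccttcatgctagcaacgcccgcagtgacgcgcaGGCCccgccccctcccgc
ADAT2: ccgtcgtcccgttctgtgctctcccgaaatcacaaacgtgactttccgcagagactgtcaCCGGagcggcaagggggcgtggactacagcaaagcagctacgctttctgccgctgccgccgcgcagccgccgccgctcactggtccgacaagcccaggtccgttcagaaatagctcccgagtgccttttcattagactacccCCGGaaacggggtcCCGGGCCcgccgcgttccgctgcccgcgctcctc
ADK: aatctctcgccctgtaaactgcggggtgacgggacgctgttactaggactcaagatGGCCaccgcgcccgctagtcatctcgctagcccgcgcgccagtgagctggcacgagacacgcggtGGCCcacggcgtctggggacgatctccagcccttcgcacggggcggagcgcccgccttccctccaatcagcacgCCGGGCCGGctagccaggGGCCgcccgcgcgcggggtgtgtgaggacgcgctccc
The other 3 held a region in shHNRNPU only: ABRAXAS2, a scaffold of a deubiquitinase complex (chr10:124801569-124801818, plus strand), ACAD8, a mitochondrial dehydrogenase of valine breakdown (chr11:134253318-134253567, plus strand), and AFTPH, aftiphilin, of clathrin trafficking (chr2:64524078-64524327, plus strand).
ABRAXAS2: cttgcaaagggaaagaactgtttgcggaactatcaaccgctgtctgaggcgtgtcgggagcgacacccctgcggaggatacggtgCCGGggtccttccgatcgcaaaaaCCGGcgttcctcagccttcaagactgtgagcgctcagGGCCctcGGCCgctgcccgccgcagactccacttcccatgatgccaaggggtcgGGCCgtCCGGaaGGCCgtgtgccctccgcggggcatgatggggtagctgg
ACAD8: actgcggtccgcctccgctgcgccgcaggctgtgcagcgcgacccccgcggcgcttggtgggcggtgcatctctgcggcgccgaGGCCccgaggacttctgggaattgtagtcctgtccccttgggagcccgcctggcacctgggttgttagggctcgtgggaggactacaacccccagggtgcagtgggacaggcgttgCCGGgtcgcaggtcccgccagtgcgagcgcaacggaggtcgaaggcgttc
AFTPH: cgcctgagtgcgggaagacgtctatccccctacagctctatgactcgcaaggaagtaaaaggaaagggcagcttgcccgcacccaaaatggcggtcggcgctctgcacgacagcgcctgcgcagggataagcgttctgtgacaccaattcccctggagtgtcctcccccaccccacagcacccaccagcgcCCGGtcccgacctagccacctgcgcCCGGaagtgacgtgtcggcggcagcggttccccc
GC content of the printed 250 bases was 65.6%, 65.2% and 70.8% in the first group and 64.8%, 70.4% and 64.8% in the other. All lay above the median of 62.7% over all promoters, although that was taken over the whole window of 300 bases. CCGG occurred 0, 3 and 2 times in the first group and 3, 1 and 2 times in the other. An hPSC region overlapped the promoters of AATF, ADAT2, ABRAXAS2, ACAD8 and AFTPH but not that of ADK. The gene body of ADK, which in the annotation used begins ahead of that promoter, held 6 regions in shLUC and 7 in shHNRNPU.

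Families were compared as the number of distinct regions in their members. Numbers of members lower or higher are read beside all 10934 genes with a region, of which 3344 were lower and 2361 higher. These shares depend on length: 24.4% lower and 19.2% higher in genes under 50 kb, 52.5% and 25.7% in those over 500 kb. Of 39 families, 31 had fewer regions in shHNRNPU, 7 had more and 1 had equal numbers. In 7 the interval lay below 0 and in none above it. All genic regions stood at -0.11. Of the 39 intervals 2 did not include that value, that of voltage-gated calcium channels and that of slits, robos, netrins and their receptors. At a level of 95%, about that many of 39 intervals would miss it by counting error alone, so the 2 are a description. Some directions rested on the member of largest net change. Without it heparan sulfate enzymes and glypicans stood at -0.02, and neurexins with neuroligins and ribosomal protein genes at 0. The other families with more regions stayed above 0. Ephrins and their receptors, axonemal dyneins, and matrix and lamina genes, which had fewer regions, also came to 0.

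**Figure D5:**
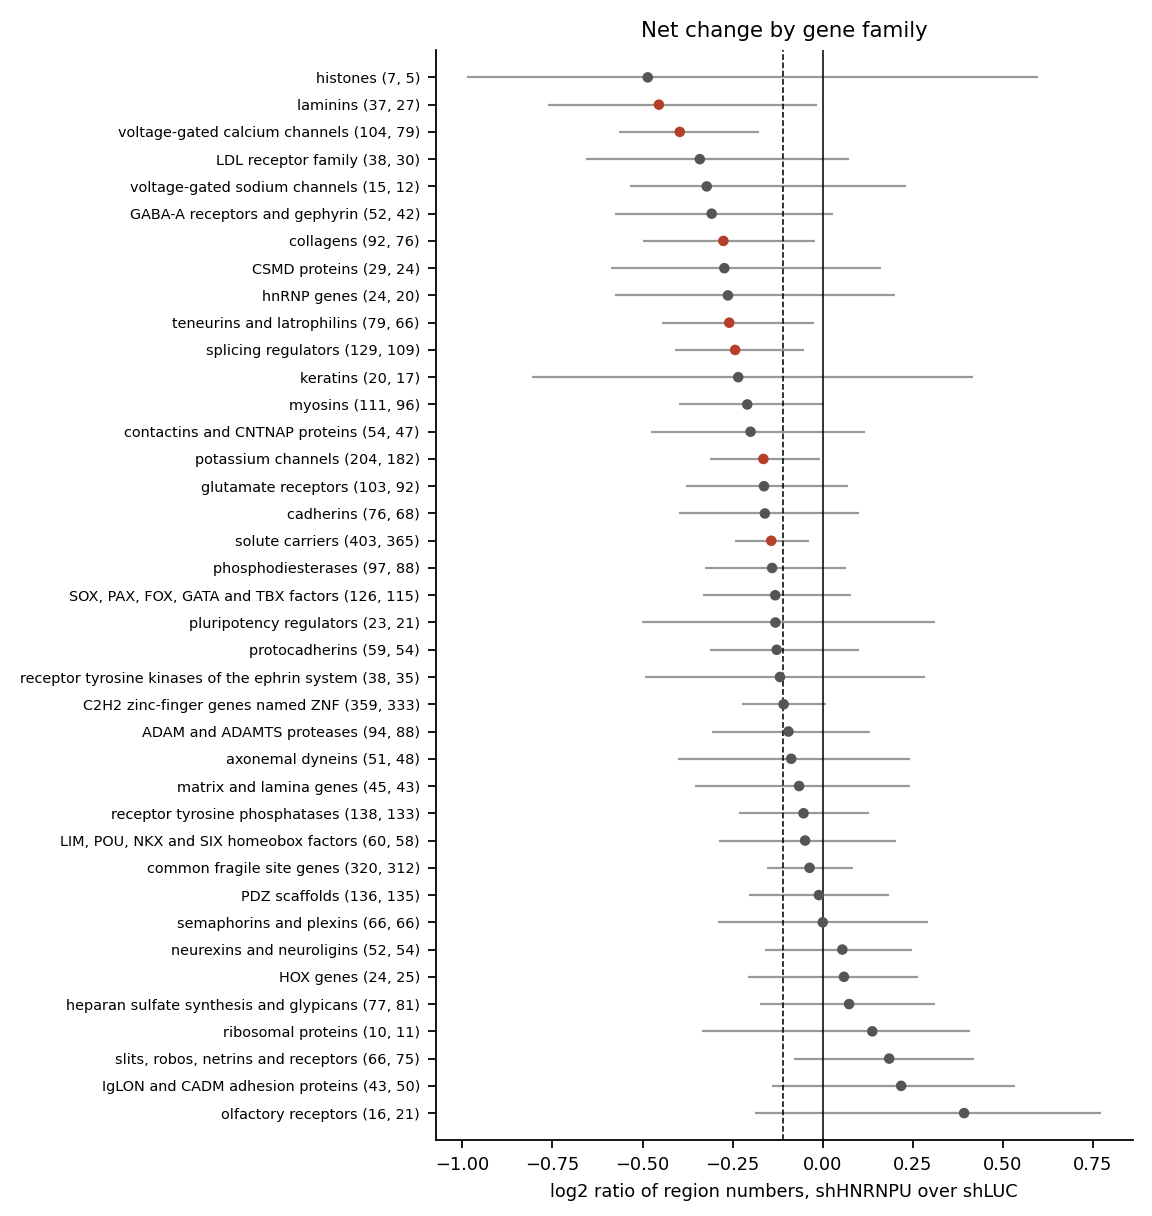
Log2 ratio of region numbers in 39 gene families, shHNRNPU over shLUC (x axis), with 95% counting intervals; the numbers after each name are shLUC and shHNRNPU regions, the dashed line is the ratio of all genic regions (-0.11) and red marks an interval below 0. Voltage-gated calcium channels (104 and 79) lie below the line, and slits and robos (66 and 75) and IgLON and CADM proteins (43 and 50) above it, with intervals that include 0.

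Voltage-gated calcium channel genes, which encode pore and accessory subunits, held 104 shLUC, 79 shHNRNPU and 83 hPSC regions (log2 ratio -0.40, interval -0.57 to -0.18). Of 20 members with a region, 11 were lower, 2 higher and 7 equal. CACNA2D3 was the 1 member lower by 1.5-fold among 6 with at least 10 regions, a share close to the 16.5% over all 832 genes. Without it the ratio was -0.28 (interval -0.46 to -0.06), which includes the genic value. The median log2 ratio of the 6 was -0.30, against -0.15 over the 832 genes. CACNB1, a beta subunit, had the largest gain, from 0 to 1.

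The intervals of the other channel and receptor families included the genic value. Potassium channels held 204 and 182 regions (-0.16, interval -0.31 to -0.01), with 30 members lower and 16 higher. The interval included 0 without the member of largest net change (-0.28 to 0.03) and when any overlap with the gene body was counted (-0.28 to 0.02). KCNQ1, a cardiac potassium channel, gained most, from 10 to 13. GABA-A receptors with gephyrin held 52 and 42 (-0.31, interval -0.58 to 0.03), and without GPHN the ratio was -0.15 (interval -0.50 to 0.26). Glutamate receptors held 103 and 92 (-0.16, interval -0.38 to 0.07), with GRIK4, a kainate receptor, up from 12 to 16 and GRM3, a metabotropic receptor, down from 4 to 2. Sodium channels held 15 and 12.

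Adhesion families went both ways. Teneurins and latrophilins, which pair across synapses, held 79 and 66 regions (-0.26, interval -0.44 to -0.02), and without TENM3 the ratio was -0.17 (interval -0.42 to 0.13). Cadherins held 76 and 68, with CDH4 the largest loss and CDH1, the epithelial cadherin of pluripotent cells, from 0 to 2. Contactins and CNTNAP proteins held 54 and 47. Their largest loss was in CNTN4, from 14 to 10. Neurexins and neuroligins held 52 and 54 (0.05, interval -0.16 to 0.25), with NLGN1 from 9 to 11. IgLON and CADM proteins held 43 and 50 (0.22, interval -0.14 to 0.53), with 5 members higher and 1 lower. NEGR1, an IgLON protein, went from 2 to 5 and OPCML, another, from 16 to 14. Protocadherins need care, because the transcripts of a cluster share bases: 30 members were lower and 6 higher, but these were 59 shLUC and 54 shHNRNPU distinct regions (-0.13, interval -0.31 to 0.10).

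Slits, robos, netrins and their receptors held 66 in shLUC, 75 in shHNRNPU and 76 in hPSC (0.18, interval -0.08 to 0.42), with 8 members higher and 3 lower. UNC5D, a netrin receptor, went from 5 to 8 and NTNG1, a netrin-G, from 3 to 1. Semaphorins and plexins held 66 in each, with PLXNA4 up by 4 and PLXNA1 from 3 to 1. Ephrins and their receptors, a further guidance system, held 38 and 35 (-0.12, interval -0.49 to 0.28). Heparan sulfate enzymes and glypicans held 77 and 81 (0.07, interval -0.17 to 0.31). In that family HS3ST4 doubled from 5 to 10 while HS6ST3, a related sulfotransferase, went from 9 to 5.

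Laminins of the basement membrane held 37 and 27 regions (-0.45, interval -0.76 to -0.02), with 7 members lower and 1 higher. LAMA5 went from 5 to 2. Without the member of largest net change the interval for laminins was -0.70 to 0.10. Collagens held 92 and 76 (-0.28, interval -0.50 to -0.02), with 15 lower and 7 higher, and without the member of largest net change the interval was -0.46 to 0.02. Myosins held 111 and 96 (-0.21, interval -0.40 to 0.00), with MYO16 from 8 to 4 and MYH10 from 2 to 5. Splicing regulators such as CELF2, from 10 to 5, held 129 and 109 (-0.24, interval -0.41 to -0.05), although RBFOX1 in the same family was equal.

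Common fragile site genes, which are very long, held 320 and 312 regions (-0.04, interval -0.16 to 0.08). Of 21 with at least 10 regions, 3 were lower and 1, WWOX, higher, beside 16.5% lower and 3.37% higher over the 832 genes. PDZ scaffold genes held 136 and 135, with PDZD2 up by 6 and MAGI2, a synaptic scaffold, down from 16 to 12. Receptor tyrosine phosphatases held 138 and 133, with PTPRG from 20 to 23. hnRNP genes held 24 and 20, and genes of the matrix and lamina 45 and 43. In the latter NUMA1, a nuclear mitotic apparatus protein, went from 3 to 1 and SYNE2, a nesprin, from 11 to 13.

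HOX genes held 24 and 25, and 14 of the 39 had a region near a gene end in both lists, beside 2982 of all 19126 genes. The median HOX gene was 3.785 kb long, so much of its body lies within 1 kb of an end. Pluripotency regulators held 23 and 21. Among them ESRRB, an orphan nuclear receptor of pluripotent cells, went from 1 to 3 with 5 in hPSC, and KLF5 from 1 to 0. SOX, PAX, FOX, GATA and TBX factors held 126 and 115, with GATA2 from 0 to 2 and FOXN1 from 2 to 0. Ribosomal protein genes held 10 and 11, histones 7 and 5, and olfactory receptors 16 and 21. The ZNF genes held 359 and 333 (-0.11), the genic value, and solute carriers 403 and 365 (-0.14, interval -0.24 to -0.04).

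The same loss was spread over 1 Mb windows whatever their gene content. Of 2746 autosomal windows with a region, 1575 had fewer in shHNRNPU, 737 more and 434 the same. Windows with at least 10 regions over both lists numbered 2532, and 188 (7.42%) were at least 1.5-fold lower and 43 (1.7%) higher, or 77 and 75 after scaling. The log2 ratio was -0.13 in windows without genic bases, -0.13 in those with up to 25% genic bases, -0.11 from 25 to 50%, -0.12 from 50 to 75% and -0.13 above 75%. These 5 intervals overlapped. Gene-free windows kept more of their shLUC regions (76.4%, interval 74.1 to 78.5%) than those above 75% (interval 68.8 to 71.1%).

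Of the 5 windows of largest net loss, 4 lay close to a chromosome end. A ranking by number favours dense windows, and the median window held 13 shLUC regions. The windows with TAF4 and INPP5A below were not lower by 1.5-fold, and the others were. The window chr17:82000001-83000000, whose longest gene is TBCD, held 34 shLUC, 21 shHNRNPU and 32 hPSC regions. That at chr20:62000001-63000000 with TAF4, a subunit of TFIID, held 52, 39 and 22. Those with ZNF469 on chromosome 16 (35, 23 and 20) and INPP5A, an inositol phosphatase, on chromosome 10 (53, 41 and 27) lay 1.08 and 0.627 Mb from the last gene of their chromosome. The fifth, with EIF4G3, a translation initiation factor, on chromosome 1 (35, 23 and 22), lay farther inside. EIF4G3 itself, which like TAF4 lies only partly in its window, held 10 regions in both lists.

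The windows of largest net gain lay away from the ends, apart from that with NSD1. That window, chr5:177000001-178000000, held 16 shLUC, 24 shHNRNPU and 20 hPSC regions, whereas NSD1, a histone methyltransferase, held 3 regions in each hairpin list. The windows with CDC42BPA on chromosome 1 (17, 25 and 18), ZAN on chromosome 7 (21, 29 and 37), HS3ST4 on chromosome 16 (12, 19 and 18) and TRIO on chromosome 5 (16, 23 and 26) followed. Those with CDC42BPA, ZAN and TRIO were not higher by 1.5-fold. CDC42BPA and HS3ST4 lie only partly in their windows. Only HS3ST4 and TRIO were themselves among the 10 genes of largest gain.

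Distance from the chromosome end was measured after these windows were seen. It was taken from the first base of the chromosome and from the end of its last protein-coding gene. Regions beyond that gene were left out, and the short-arm ends of 5 acrocentric chromosomes were not used. Within 2 Mb of an autosome end taken in this way there were 2196 shLUC and 1916 shHNRNPU regions (-0.20, interval -0.25 to -0.15). From 2 to 5 Mb there were 2319 and 2118 (-0.13, interval -0.18 to -0.08), from 5 to 20 Mb 8717 and 8002 (-0.12) and beyond 20 Mb 25577 and 23708 (-0.11, interval -0.12 to -0.10). The last 2 Mb include the windows that prompted this split, and their interval overlaps that from 2 to 5 Mb. Inside genes and over 1 kb from their ends, the ratio there was -0.25 (interval -0.31 to -0.18), against -0.14 (interval -0.15 to -0.12) beyond 20 Mb. Autosome ends held 1799 hPSC regions within 2 Mb.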

How the data were processed

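MAR-seq was performed in 6 samples of H1 cells. Per the labels the submitters' processing notes name cutadapt, Bowtie2, SAMtools, MACS2, deepTools and hg38, and their settings are not given in the sources used here. The deposited files are region lists with a chromosome, a start and an end, and the authors' score and strand columns are constant. Region names in the hPSC list carry the tag rp1 and those of the hairpin lists do not, and whether it comes from 1 of its samples is not stated. There is 1 list for each group, and how it was made from 2 samples is not stated. No method was taken from the accompanying paper, which reports a different study.

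Regions were counted by centre in genes of the GRCh38.p14 RefSeq table. A region in several genes was counted for each gene, once per family, and for the longest gene in length classes and positions. A gene or window was read as changed at 1.5-fold or more with at least 10 regions over both hairpin lists. Shares carry 95% exact Clopper-Pearson intervals. Named genes were the 10 largest net losses and gains, the 3 of each in a length class, the member with the largest loss and gain in a family, the most and least kept genes, HNRNPU, and the longest gene in the 5 windows of largest loss and gain; not all are printed. The members, families and rules were chosen with earlier results of these data known. Counting was tested on simulated lists. The scripts ran in Python 3.11.15 with scipy 1.17.1 for intervals, matplotlib 3.10.9 for plots, and tables in pandas 2.3.3 over numpy 2.4.6. Alternatives were other overlaps, merging of close regions, scaling to list length, other folds, minimums and windows, and, added after the data were seen, leaving out autosome ends or gene ends, splitting gene ends by strand and 1 promoter per gene.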

Additional observations from a re-analysis of the deposited data

How the results depend on the processing

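Scaling shHNRNPU counts to the length of the shLUC list moved the genic, length class, position, promoter, gene and window values, since the lists differ in length. Most family values stayed within their first interval. The genic log2 ratio became 0.0077, and those of the length classes 0.032, 0.0055, -0.0091 and -0.0093 from short to long, so the sign turned in both shorter classes. Near gene ends the ratio became 0.16, farther inside -0.024 and at promoters 0.21, and 1 family in place of 7 had an interval below 0. The interval of slits, robos, netrins and their receptors then lay above 0 (0.04 to 0.54). Genes lower and higher became 41 and 48, and windows 77 and 75. Genes lower and higher numbered 14 and 4 at 2-fold, 702 and 359 with at least 5 regions and 11 and 1 with at least 20. Windows lower and higher numbered 21 and 4 at 2-fold and 454 and 123 at 500 kb. Without regions near gene ends the classes under 50 kb and of 50 to 200 kb stood at -0.15 each. Within 2 kb of a gene end the ratio was 0.012 in place of 0.04, near gene starts alone it was 0.074 and near 3′ ends alone -0.18. Of 195 family values 192 stayed within the first interval, and ribosomal protein genes went to 0.79 with any overlap. Of the 195, 39 came from asking for 50% overlap before a region was called kept. That rule does not enter the region totals, so these 39 ratios could not move and say nothing about stability. Many of the first intervals were also wide. No paired analysis was possible because the repeats are not apart in the lists, so none could be left out either. How many regions each list would hold at equal depth, and whether hairpin libraries differed in quality, were not tested.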
